A study of Mus musculus with 2 samples.

Results

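A set of 549 nuclei with an excess of scATAC-seq fragments over myeloid marker genes was examined, out of 10329 nuclei kept from 1 sham and 1 stroke library of mouse brain. The nuclei were chosen by a gate on 15 markers of microglia and other leukocytes: Csf1r, P2ry12, Cx3cr1, Tmem119, C1qa, C1qb, C1qc, Siglech, Inpp5d, Fli1, Ikzf1, Ptprc, Dock2, Apbb1ip and Runx1. Fragments over each gene body and 2000 bases upstream were summed per nucleus, and a nucleus passed with at least 5 such fragments and an excess of at least 3.5 square roots of the number expected from its depth, at a pooled rate of 626 marker fragments per 1000000 fragments. These are called gated nuclei here, and all other kept nuclei of the same library serve as their comparison. The gate took 253 of 5949 sham nuclei (4.25%, 3.75% to 4.80%) and 296 of 4380 stroke nuclei (6.76%, 6.03% to 7.54%), a ratio of shares of 1.59 (1.35 to 1.87). All intervals are 95% intervals for counting error.

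The mice were wild-type male C57BL/6J animals of 8 to 12 weeks. Stroke mice had the middle cerebral artery occluded with a filament for 1 h and then reperfused (MCAO/R), and in sham controls the artery was not kept closed after the filament had been passed. Tissue was taken at 48 h without olfactory bulbs and cerebellum and was flash frozen. Nuclei came from 4 pooled sham brains and from the pooled ipsilateral hemispheres of 4 stroke brains, so there was 1 library per condition. Condition, hemisphere, library and individual animal therefore cannot be told apart, no test between sham and stroke was possible, and a difference between these conditions is a difference between 2 libraries. The labels give the tissue as brain and name no cell type. Of the barcodes called as cells, 66 were called in both libraries, and 34 of them were kept in both; no barcode was gated in both, although 3 gated sham barcodes were also called in stroke and 4 gated stroke barcodes in sham.

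Microglia are the resident macrophages of the brain. They depend on signalling through the Csf1r receptor and on the transcription factor PU.1, encoded by Spi1, and in healthy tissue they keep a surveying state marked by genes such as P2ry12, Tmem119 and Sall1. After ischemia they clear debris, and monocytes and neutrophils can enter from the blood. scATAC-seq reads accessible chromatin, not RNA, so the gene activity reported below, the fragments over a gene's body and 2000 bases upstream per 1000000 fragments of the same nuclei (CPM), measures openness of a locus.

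The stretches of open chromatin that set the gated stroke nuclei apart are shown first, because they lie mostly away from gene starts and carry the letters counted later. They are from bins of 500 bases with at least 20 fragments in gated stroke nuclei and at least 4 times the CPM of other stroke nuclei, outside the windows of the 15 markers, and are among the 12 with the highest lower bound of that ratio. Each line gives the 200 bases with the most fragment ends in and around the bin, on the plus strand of mm10 (GRCm38), under the name of the nearest gene. Capitals mark matches on either strand to the PU.1, IRF, composite PU.1-IRF, CEBP, RUNX, AP-1 or MEF2 letters searched. Those found in these stretches are GAGGAAGT (a PU.1 motif), GGAANNGAA (the composite) and TTGCNNAA (CEBP), and a match is a description of letters, not a binding site.
Plxdc2, chr2:16334476-16334675: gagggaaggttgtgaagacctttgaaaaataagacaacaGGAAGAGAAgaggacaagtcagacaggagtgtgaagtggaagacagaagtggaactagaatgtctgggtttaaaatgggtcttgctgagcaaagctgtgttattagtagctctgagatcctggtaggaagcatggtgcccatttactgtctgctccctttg
Glrp1, chr1:88567315-88567514: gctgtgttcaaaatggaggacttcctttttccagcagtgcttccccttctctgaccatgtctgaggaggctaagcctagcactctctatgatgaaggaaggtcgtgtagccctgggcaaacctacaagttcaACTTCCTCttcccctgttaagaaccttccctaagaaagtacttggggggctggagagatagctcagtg
Cebpa, chr7:35098851-35099050: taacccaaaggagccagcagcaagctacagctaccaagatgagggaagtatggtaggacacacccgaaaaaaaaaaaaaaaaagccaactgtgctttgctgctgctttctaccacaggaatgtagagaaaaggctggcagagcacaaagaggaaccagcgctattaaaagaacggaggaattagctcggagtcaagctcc
Fam102b, chr3:109043506-109043705: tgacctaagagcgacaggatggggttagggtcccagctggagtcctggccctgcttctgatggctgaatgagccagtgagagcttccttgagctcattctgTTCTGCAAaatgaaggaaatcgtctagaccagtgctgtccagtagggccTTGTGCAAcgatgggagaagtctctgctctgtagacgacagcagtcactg

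All 4 stretches lay between genes. The Plxdc2 bin, 21554 bases upstream of the start of Plxdc2, held 30 fragments in gated stroke nuclei (6.47 CPM) against 0.128 CPM in other stroke nuclei, and 2 fragments in gated sham nuclei. The bin 57184 bases upstream of Glrp1 held 24 fragments (5.17 CPM against 0.128). The bin 20543 bases upstream of Cebpa, a transcription factor of myeloid lineages, held 21 fragments in gated stroke nuclei, none in gated sham nuclei, and the letters shown match none of these motifs. The bin 16143 bases upstream of Fam102b held 22 fragments in stroke and 2 in sham. In stroke these values chose the bins and are given as a description.

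The gated nuclei of the 2 libraries differed in how many of the gate's own markers they held, a value that the gate used and that is given as a description. The number of the 15 markers with at least 1 fragment, counted per nucleus, had 2 humps among gated stroke nuclei, at 4 markers (35 nuclei) and at 11 markers (37 nuclei), whereas gated sham nuclei had a single hump at 4 markers (57 nuclei) with a thin tail up to 14. A cut at 8 markers, made after these values had been seen, divides a range and not a cell type: 17 sham and 11 stroke nuclei had 7 markers, and 8 sham and 26 stroke nuclei had 8. Nuclei with 8 or more are called multi-marker and those with at most 7 few-marker. Of the gated sham nuclei only 21 were multi-marker (8.30%, 5.21% to 12.4%), against 167 of the gated stroke nuclei (56.4%, 50.6% to 62.1%). As a share of all kept nuclei, multi-marker nuclei were 0.353% in sham (0.219% to 0.539%) and 3.81% in stroke (3.27% to 4.42%). Their ratio of 10.8 (6.87 to 17.0) moves with the cut, to 3.66 at 6 or more and 24.6 at 10 or more markers. Few-marker nuclei were 3.90% in sham (3.42% to 4.42%) and 2.95% in stroke (2.46% to 3.49%), a ratio of 0.755 (0.611 to 0.933). These shares also depend on the filter, which removed 4360 of 8740 called stroke and 1030 of 6979 called sham barcodes. Of the removed barcodes, 35 in stroke and 4 in sham passed the gate with 8 or more markers.

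**Figure D1:**
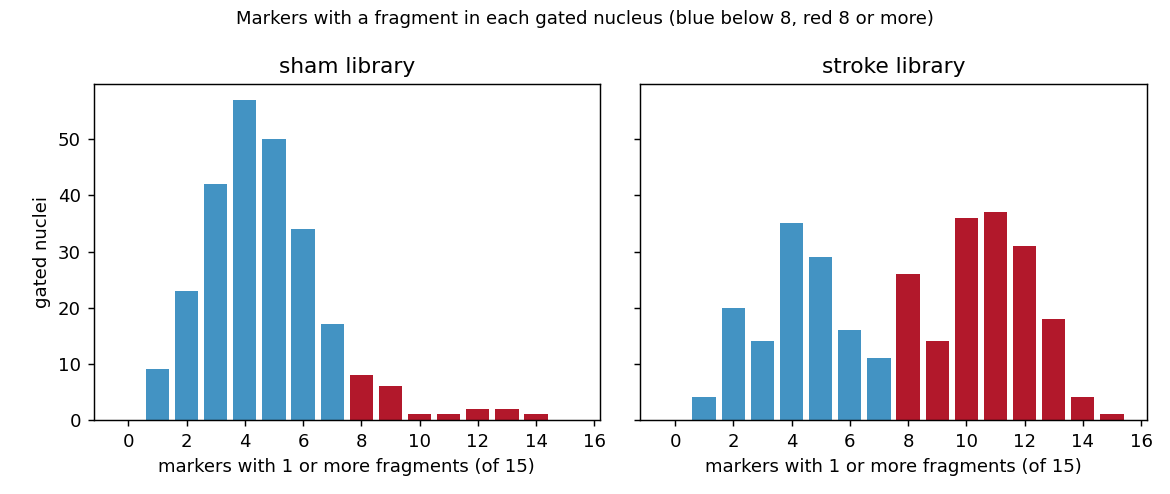
Number of gated nuclei (y axis) by the number of the 15 gate markers with at least 1 fragment (x axis), in sham and stroke, with nuclei of 8 or more markers in red and the rest in blue. Gated stroke nuclei pile up at 4 and again at 11 markers, and only 21 gated sham nuclei reach 8.

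The share of multi-marker nuclei by depth is likewise a description, since it counts the gate's own markers. Below 10000 fragments per nucleus, 3 of 82 gated sham nuclei and 25 of 68 gated stroke nuclei were multi-marker. Between 10000 and 20000 fragments these were 4 of 130 and 68 of 145, and from 20000 fragments upward 14 of 41 and 74 of 83. Outside the gate, 65 other sham nuclei (1.14%) and 127 other stroke nuclei (3.11%) also had fragments in 8 or more markers; these were deep, with medians of 21922 and 22362 fragments.

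The fragments of a few-marker nucleus sat mostly on 1 marker. The marker with the most fragments held a median of 71.4% of a few-marker nucleus's marker fragments in sham and 69.2% in stroke, against 25.8% and 24.0% in multi-marker nuclei. Cx3cr1, the receptor for the neuronal chemokine fractalkine, led in 111 of 232 few-marker sham nuclei and in 63 of 129 few-marker stroke nuclei, and in 6 of 21 and 57 of 167 multi-marker nuclei. Over all gated nuclei, Dock2, an activator of the GTPase Rac in leukocytes, led in 41 sham and 62 stroke nuclei, the phosphatase gene Inpp5d in 32 and 30, the transcription factor gene Runx1 in 25 and 45, and Csf1r in 12 and 14. The gene model used for Cx3cr1 runs from 119901616 to 120069879 on chromosome 9 (168 kb, mm10) and has 5 other genes inside it, Wdr48, Gorasp1, Ttc21a, Csrnp1 and Xirp1, whereas the RefSeq model runs from 120048683 to 120068296 (19.6 kb). Fragments over those genes were therefore counted as Cx3cr1.

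In few-marker nuclei the excess was not limited to the leading marker and reached far into its flanks. In sham it was 12.9-fold (12.5 to 13.3) over the leading window itself, which chose the nuclei, and outside the window 5.45-fold within 50 kb, 2.95-fold between 200 and 400 kb and still 1.58-fold (1.52 to 1.63) between 1000 and 1500 kb. Few-marker stroke nuclei gave 11.1-fold in the window, 4.40-fold within 50 kb, 2.25-fold between 200 and 400 kb and 1.57-fold (1.49 to 1.64) between 1000 and 1500 kb. In multi-marker stroke nuclei the window stood at 4.71-fold, the first 50 kb at 2.05-fold, and the bands from 200 kb outward between 0.962 and 1.12. Multi-marker sham nuclei held 4.43-fold in the window, 2.24-fold within 50 kb and 3.08-fold (2.44 to 3.84) between 50 and 100 kb. Farther out they held 1.16-fold between 200 and 400 kb, 1.70-fold between 400 and 700 kb and 1.05-fold (0.935 to 1.17) in the outermost band. What gives a nucleus an excess over a megabase around 1 gene was not tested.

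**Figure D2:**
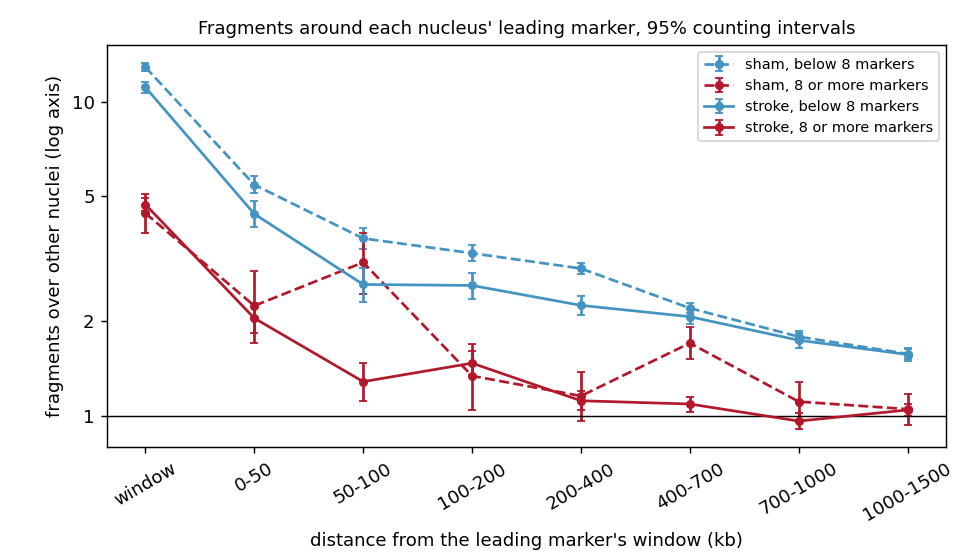
Fragments of gated nuclei over the number expected from other nuclei of the same library (y axis) by distance from the window of each nucleus's leading marker (x axis, kb), with 95% intervals for counting error. Both few-marker groups decline from 5.45-fold (sham) and 4.40-fold (stroke) to 1.58-fold and 1.57-fold across 1500 kb, while multi-marker stroke nuclei lie near 1 from 200 kb outward.

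The gate's own markers are given as a description, since they chose the nuclei. The score of the gate was at least 3.5 in the nuclei inside, and 3.498 in sham and 3.499 in stroke in the nuclei just outside. In the 0.5 below the limit there were 66 sham and 72 stroke nuclei, and in the 0.5 above it 43 in each library. The median score was 5.37 in sham and 5.89 in stroke, the highest 20.2 and 41.1, and the median number of marker fragments was 25 and 29.5, against 5 in other nuclei of either library.

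The cut at 8 markers counts these same genes, so levels in multi-marker and few-marker nuclei differ by construction. Among the 3 subunit genes of complement C1q, which microglia supply in the brain, C1qb stood at 2.36 CPM in other sham nuclei, 3.97 in few-marker and 42.3 in multi-marker sham nuclei, and at 2.24, 3.77 and 42.4 in the same groups of stroke. A C1qb fragment was found in 11 of 21 multi-marker sham nuclei (52.4%) and 86 of 167 multi-marker stroke nuclei (51.5%). In few-marker nuclei it was found in 3.88% in each library, against 1.84% and 2.06% of other nuclei, which hold mainly cells that should lack the gene. C1qa reached 42.3 CPM in multi-marker sham and 27.6 in multi-marker stroke nuclei against 4.63 and 1.26 in few-marker nuclei, and C1qc 47 and 36.1 against 7.27 and 4.39.

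Receptors and surface markers of microglia were at the following levels. Csf1r, the receptor that microglia need to survive, was at 21.6 CPM in other sham nuclei, 58.5 in few-marker and 165 in multi-marker sham nuclei, and at 24.4, 43.3 and 134 in stroke. P2ry12, the ADP receptor of surveying microglia, was at 18.9, 24.1 and 84.7 in sham and 23.3, 38.9 and 81.4 in stroke. Tmem119, a membrane protein specific to microglia in the brain, was at 3.10, 9.25 and 28.2 in sham and 3.90, 10.7 and 27.6 in stroke, and the lectin gene Siglech at 2.40, 2.97 and 18.8 and at 2.98, 7.53 and 30.9. For the loci that often led the gate in few-marker nuclei the order was the other way, which the gate and the cut bring about: Cx3cr1 was at 879 CPM in few-marker and 249 in multi-marker sham nuclei (155 in other sham nuclei), and at 839 and 323 in stroke (164). Dock2 was at 313 and 193 CPM in sham and 422 and 285 in stroke. Inpp5d differed little between few-marker and multi-marker nuclei (258 and 249 CPM in sham, 220 and 209 in stroke).

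Depth and library quality moved with these groups. The median nucleus held 22734 fragments among multi-marker and 13121 among few-marker sham nuclei (11484 in other sham nuclei), and 18978, 12496 and 10943.5 in stroke. The share of fragments in peaks was 37.4%, 37.2% and 39.5% in the 3 sham groups and 29.9%, 32.2% and 34.0% in the stroke groups, and duplicates made up 14.1%, 18.5% and 17.8% of read pairs in sham and 8.26%, 14.4% and 14.2% in stroke. After thinning each nucleus to 5000 fragments, the gate held 123 sham and 141 stroke nuclei, of which 7 and 75 were among the multi-marker nuclei above. The part of the duplicate share in the results was not tested. No doublet caller was run. Instead, the same gate was applied with the marker lists of other brain lineages: at least 1 such gate was passed by 4 of 21 multi-marker (19.0%) and 85 of 232 few-marker (36.6%) sham nuclei and by 32 of 167 (19.2%) and 44 of 129 (34.1%) stroke nuclei, against 28.0% and 31.1% of other nuclei. Among the multi-marker stroke nuclei the most frequent second lineage was endothelial, with 12 nuclei (7.19%). The lists of other lineages were not cleared of genes near the gate's markers, where few-marker nuclei held the excess described above. The part of that excess in the shares of few-marker nuclei was not tested.

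To examine the label with genes the gate did not use, activity was summed over 16 genes common to myeloid cells, among them Spi1, Tyrobp, Lyn and Fcgr3. In multi-marker stroke nuclei the sum was 1032 CPM against 292 in other stroke nuclei, a ratio of 3.53 (3.40 to 3.67), and 15 of the 16 genes were at least 2-fold higher. Over all genes that could be counted, those with at least 5 fragments expected in the smaller group, 5.59% were at least 2-fold higher and 4.73% at least 2-fold lower, and the median log2 ratio was 1.94 for the list and -0.04 for all genes. Here and in later counts of genes, a gene could reach that minimum through the group in which it was high. In multi-marker sham nuclei the sum was 583 CPM against 272 in other sham nuclei (2.15, 1.89 to 2.43), with 3 of the 8 genes that could be counted at 2-fold or more, where 2.87% of all genes were higher and 8.25% lower. These 21 nuclei were uneven: when ordered by their homeostatic microglial activity, the 11 lower ones held 391 CPM of the myeloid list and 399 of glutamatergic neuron genes, and the 10 upper ones 829 and 171. The 65 other sham nuclei with 8 or more markers held 357 and 470, so the lower 11 were near those, and the 10 upper ones carry most of the sham value. The 127 other stroke nuclei with 8 or more markers held 459 CPM of the myeloid list (434 to 485) and 340 of the glutamatergic genes. That myeloid value was above the 292 CPM of the stroke comparison group, to which these 127 nuclei belong. In few-marker nuclei the list was close to other nuclei: 313 against 272 CPM in sham (1.15, 1.08 to 1.23), with 2 of 15 genes at 2-fold, and 346 against 292 CPM in stroke (1.18, 1.09 to 1.29), with 1 of 14. The background there was 0.594% higher and 1.78% lower in sham, and 0.903% higher and 2.22% lower in stroke. Neither this list nor the homeostatic list below was cleared of genes near the gate's markers. The part of the excess in the flanks of those markers in the few-marker values was not tested.

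Microglial identity genes gave the same picture. Over 12 genes of the homeostatic state, multi-marker nuclei stood at 692 CPM against 225 in stroke (3.08, 2.93 to 3.22; 12 of 12 genes at 2-fold or more, against 5.59% of all genes) and 503 against 185 in sham (2.72, 2.36 to 3.11; 6 of 7, against 2.87%). Few-marker nuclei stood at 250 against 225 in stroke (1.11, 1.004 to 1.23; 1 of 10, against 0.903%) and 197 against 185 in sham (1.06, 0.978 to 1.16; 0 of 12, against 0.594%). For most gated sham nuclei the genes outside the gate thus go against the label of microglia or other myeloid cells, since myeloid and microglial genes were near the level of other nuclei. Over the whole gate, the myeloid list was at 796 against 292 CPM in stroke (2.73, 2.63 to 2.83; 13 of 16 genes, with 3.92% of all genes higher and 1.45% lower) and at 347 against 272 CPM in sham (1.28, 1.20 to 1.35; 2 of 16, with 0.665% higher and 1.31% lower). The median log2 ratio of the 16 genes in sham was 0.31 and that of all genes -0.04.

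**Figure D3:**
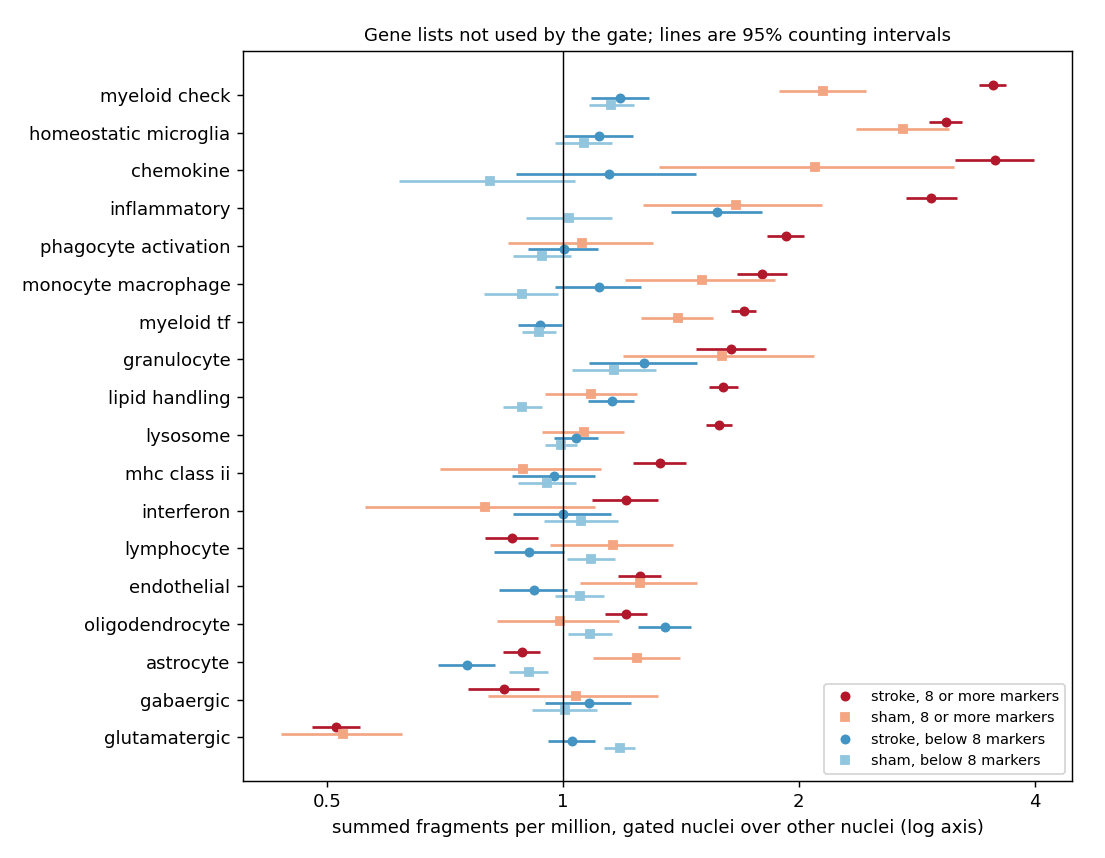
Ratio of summed gene activity in gated nuclei over other nuclei of the same library (x axis, log scale) for 18 gene lists the gate did not use, in the multi-marker and few-marker nuclei of each library, with 95% intervals for counting error. The myeloid list lies at 3.53 in multi-marker stroke and 2.15 in multi-marker sham nuclei and at 1.18 and 1.15 in few-marker nuclei.

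Among the myeloid genes, Tyrobp, the adaptor that signals for Trem2 and other receptors, was at 22.7 CPM in multi-marker stroke nuclei, 3.77 in few-marker and 2.60 in other stroke nuclei (8.72-fold over other nuclei, 6.39 to 11.8), and at 18.8, 5.29 and 2.44 in sham, from 8 fragments in the multi-marker sham nuclei. A Tyrobp fragment was found in 29.3% of multi-marker stroke and 33.3% of multi-marker sham nuclei, against 2.30% and 1.95% of other nuclei. Spi1, which encodes PU.1, was at 94.2, 31.4 and 33.1 CPM in the stroke groups (2.84-fold, 2.499 to 3.23) and at 80.0, 46.3 and 31.7 in sham. The kinase gene Lyn was at 164, 35.8 and 33.5 CPM in stroke and 96.4, 17.5 and 24.4 in sham, and the Fc receptor gene Fcgr3 at 47.6, 7.53 and 8.03 and at 25.9, 7.27 and 4.94. In both libraries the multi-marker group was the highest of the 3 for each of these 4 genes. Coro1a, an actin regulator of leukocytes, was the 1 myeloid gene under 2-fold in multi-marker stroke nuclei (42.4 against 27.2 CPM, 1.56-fold).

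Along the Spi1 locus (chromosome 2, 91082390 to 91115756, mm10, plus strand), fragment ends of multi-marker stroke nuclei peaked between 500 and 750 bases after the start, at 12.8 ends per 250 bases and 1000000 fragments, where few-marker nuclei had 0.628 and other stroke nuclei 0.724. At 2250 bases they reached 11.5 against 0.628 and 0.405. Slc17a7, the vesicular glutamate transporter of excitatory neurons (chromosome 7, 45163949 to 45176142, plus strand), showed the reverse. In the step at -1750 bases from its start multi-marker stroke nuclei had 2.63 ends (8 in all) against 9.41 in few-marker and 13.3 in other stroke nuclei, while the highest step, at -9750 bases, was open in all 3 groups, at 28.2, 30.1 and 21.2.

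**Figure D4:**
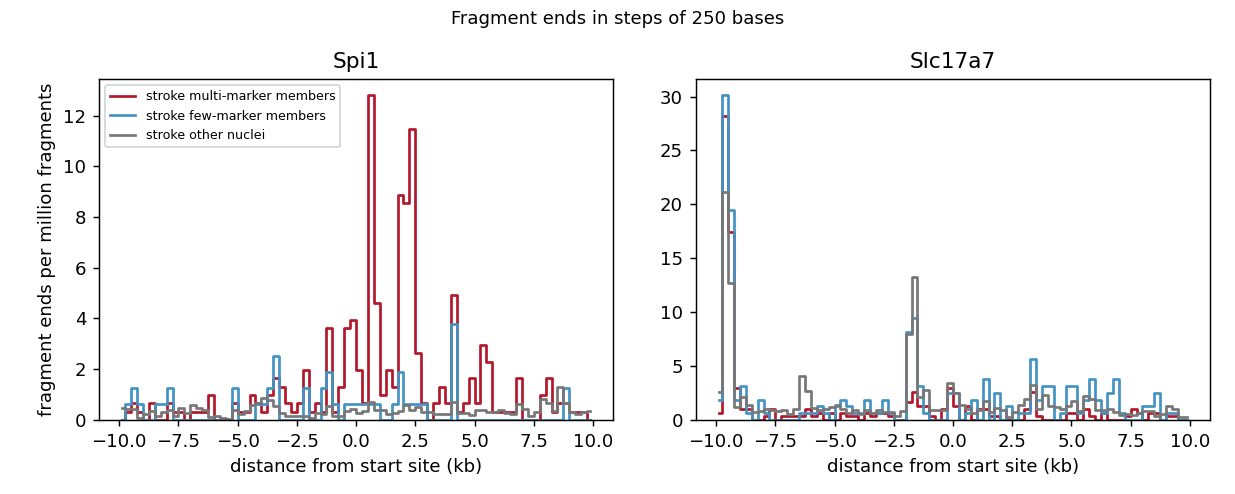
Fragment ends per 1000000 fragments in each 250-base step (y axis) by distance from the start of Spi1 and of Slc17a7 (x axis, kb, in the direction of transcription) in multi-marker, few-marker and other stroke nuclei. At Spi1 multi-marker nuclei reach 12.8 where the other groups stay below 1, and before Slc17a7 they have 2.63 at -1750 bases where other nuclei have 13.3.

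Of the homeostatic genes, Fcrls, an Fc receptor-like gene of microglia, was at 27.6 CPM in multi-marker stroke nuclei, 6.28 in few-marker and 2.85 in other stroke nuclei (9.66-fold, 7.26 to 12.8), and at 14.1 CPM from 6 fragments in multi-marker sham nuclei against 1.86. Sall1, a transcription factor that keeps microglial identity, was at 68.9, 18.2 and 18 CPM in stroke (3.83-fold, 3.28 to 4.46) and 47, 8.92 and 12.6 in sham. Mertk, a receptor for the uptake of apoptotic cells, was at 160, 37.0 and 50.9 CPM in stroke and 115, 28.4 and 33.8 in sham. In few-marker sham nuclei Sall1 and Mertk were below other nuclei, and Fcrls was at 3.30 CPM from 10 fragments. The ADP receptor gene P2ry13, the receptor gene Tgfbr1 and the orphan receptor gene Gpr34 were also highest in the multi-marker nuclei of both libraries, at 19.0, 73.5 and 11.5 CPM in stroke and 18.8, 84.7 and 9.41 in sham. The lowest ratio of the list in multi-marker stroke nuclei was 2.29, for the prostaglandin synthase gene Hpgds.

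Lineage transcription factors were less uniformly open. Of 16 factors with roles in myeloid cells, 6 were at 2-fold or more in multi-marker stroke nuclei, against 5.59% of all genes (summed activity 1102 against 648 CPM; 1.70, 1.64 to 1.76) and 3 of 14 in multi-marker sham nuclei, against 2.87% (828 against 591 CPM, 1.40). Irf8, a partner of PU.1, was at 59.1 CPM in multi-marker stroke nuclei against 13.5 in other nuclei (4.39, 3.70 to 5.19) and at 63.5 against 12.9 in sham. Irf5, an interferon regulatory factor, was at 45.6 against 14.1 CPM in stroke and 14.1 against 12.3 in sham, and Cebpa at 41.7 against 17.7 and 51.7 against 17.4. Tfeb, the factor that drives lysosomal genes, was at 140 against 60.9 CPM in stroke (2.30-fold) and 87.0 against 44.9 in sham. Stat3 and Mef2c, which many cell types use, were near other nuclei in stroke, each at 1.18-fold.

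Some chemokine loci were far more open in multi-marker stroke nuclei than in other stroke nuclei, and the multi-marker sham nuclei had too few fragments for any to be counted. Over 12 chemokine and chemokine receptor genes the sum in stroke was 119 against 33.4 CPM (3.56, 3.16 to 3.99). No count of genes at 2-fold is given. A gene could reach the minimum of 5 expected fragments through the multi-marker nuclei in which it was high. Ccl12, a chemokine that attracts monocytes, held 60 fragments (19.7 against 0.916 CPM; 21.5-fold, 14.3 to 32.6), Ccl3 44 fragments (14.4 against 0.831 CPM; 17.4-fold, 11 to 27.5) and Ccl4 30 fragments (9.85 against 0.980 CPM, 10.1-fold). In the 21 multi-marker sham nuclei Ccl12 held 3 fragments, Ccl3 1 and Ccl4 none. These sham nuclei held 425122 fragments over the whole genome, against 3045892 in multi-marker stroke nuclei. Their counts therefore do not show whether the 3 loci were less open than in stroke. In few-marker nuclei Ccl3 was at 1.26 CPM in stroke and 0.661 in sham, from 2 fragments each. Cxcl10, an interferon-driven chemokine, and Cxcr4 did not stand out, at 1.05-fold and 1.04-fold.

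Most inflammatory genes were higher in the same nuclei. In multi-marker stroke nuclei 11 of 15 genes counted were at 2-fold or more, against 5.59% of all genes (276 against 93.7 CPM; 2.95, 2.74 to 3.18), and few-marker stroke nuclei reached 1.57 (1.37 to 1.80), with 2 of 13 against 0.903%. As above, a gene could reach the minimum for these counts through the nuclei in which it was high. The cytokine gene Osm was at 20.03 against 2.32 CPM (8.62-fold), Naip2, a sensor of bacterial proteins that activates an inflammasome, at 53.2 against 7.46 (7.13-fold), and Il1a at 18.4 against 3.28 (5.60-fold). Nlrp3, another inflammasome sensor, was at 30.5 against 7.52 CPM and Tnf at 12.1 against 3.09. Il1b was at 5.91 against 3.54 CPM (1.67, 0.966 to 2.72), and Ptgs2 and Nos2 were at 1.22-fold and 1.13-fold. In multi-marker sham nuclei Osm, Naip2, Il1a, Nlrp3, Tnf and Il1b held between 2 and 6 fragments each. With 425122 fragments in all against 3045892 in multi-marker stroke nuclei, these counts are too few to set beside the stroke values. None of the 3 genes of the list that could be counted there was at 2-fold, against 2.87% of all genes.

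Genes of phagocytes responding to damage were higher in multi-marker stroke nuclei than in other stroke nuclei, while the multi-marker sham nuclei were mixed. Their sum was 463 against 241 CPM in stroke (1.92, 1.82 to 2.03), with 10 of 19 genes at 2-fold or more, against 5.59% of all genes. In sham it was 212 against 200 CPM (1.06, 0.851 to 1.30), with 0 of 7 genes at 2-fold or more, against 2.87% of all genes. The 11 sham nuclei of lower homeostatic activity held 151 CPM and the 10 upper ones 289 (217 to 377). Trem2, the receptor for lipids and debris that signals through Tyrobp, was at 32.8 CPM from 100 fragments in multi-marker stroke nuclei against 4.22 in other and 4.39 in few-marker stroke nuclei (7.78-fold, 6.06 to 9.95), and at 9.41 CPM from 4 fragments against 5.06 in sham. It had a fragment in 38.9% of multi-marker stroke nuclei, 3.10% of few-marker and 3.60% of other stroke nuclei. The tetraspanin gene Cd9 was at 77.5 against 27.7 CPM (2.80-fold), Clec7a, the receptor for fungal glucans, at 7.88 against 1.87 (4.20-fold) and the integrin gene Itgax at 20.7 against 5.50 (3.76-fold). Several genes known for high RNA in such cells were not open beyond other nuclei: Lgals3 was at 14.4 against 12.6 CPM, Gpnmb at 11.8 against 12.6 and Fabp5 at 0.731-fold (0.547 to 0.958).

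Lysosomal and lipid-handling loci followed. Over 17 lysosomal genes the sum was 918 against 580 CPM in multi-marker stroke nuclei (1.58, 1.52 to 1.64), with 5 at 2-fold or more against 5.59% of all genes, and 637 against 599 CPM in multi-marker sham nuclei (1.06). The cathepsin genes Ctsz and Ctsd were at 36.8 against 9.10 CPM (4.04-fold) and 65.7 CPM (2.19-fold), the legumain gene Lgmn at 123 against 51.5 (2.38-fold) and Cd68, the macrophage lysosomal glycoprotein, at 22.3 against 9.55 (2.34-fold). Lamp1, a membrane protein of lysosomes in all cells, was at 24.0 against 27.7 CPM. Of 10 lipid-handling genes 3 were at 2-fold or more in multi-marker stroke nuclei, on the same background (777 against 485 CPM; 1.60, 1.53 to 1.67). Abca1, the cholesterol exporter, was at 201 CPM in multi-marker, 60.2 in few-marker and 57.8 in other stroke nuclei (3.47-fold, 3.18 to 3.79), and at 80.0, 32.7 and 42.4 in sham. Plin2, which coats lipid droplets, was at 19.7 against 7.86 CPM in stroke. In multi-marker sham nuclei it held 1 fragment (2.35 CPM, against 4.10 in other sham nuclei).

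The multi-marker stroke nuclei were also higher for some markers of blood-derived and border macrophages and near other nuclei for the rest. Over 16 such genes the sum was 266 against 148 CPM (1.80, 1.67 to 1.93), and 6 of 12 genes counted were at 2-fold or more, against 5.59% of all genes. That count has the limit that a gene could reach the minimum through the multi-marker nuclei in which it was high. In multi-marker sham nuclei the sum was 198 against 131 CPM (1.51). Ccr2, the receptor that brings monocytes into tissue, held 25 fragments (8.21 against 1.07 CPM, 7.70-fold), and Cd14 34 (11.2 against 2.71 CPM, 4.13-fold). In multi-marker sham nuclei, with 425122 fragments in all against 3045892 in stroke, Ccr2 held 1 fragment and Cd14 none. Mrc1, a receptor of border macrophages, was at 37.1 against 16.5 CPM in stroke and 25.9 against 10.9 in sham, while Lyve1 was at 5.91 against 7.65 and F13a1 at 46.9 against 42.8 in stroke. Ly6c2, which marks inflammatory monocytes, held 1 fragment. The defining granulocyte genes S100a8, S100a9, Ly6g and Retnlg held 6, 4, 5 and 5 fragments in multi-marker stroke nuclei, although Csf3r, the receptor for the granulocyte growth factor, was at 34.1 against 7.67 CPM; the granulocyte list stood at 135 against 82.6 CPM (1.64). The lymphocyte list was at 225 against 261 CPM (0.862). How many multi-marker nuclei were resident and how many came from blood was not tested.

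Lists of other functions and lineages had sums between 0.514 and 1.38 times other nuclei in the multi-marker groups. In multi-marker stroke nuclei interferon-driven genes were at 1.20 times other nuclei (1 of 10 at 2-fold or more, against 5.59% of all genes), class II antigen presentation genes at 1.33 (0 of 6) and genes of hypoxia and stress at 1.29 (1 of 14). Glutamatergic neuron genes were lower in the multi-marker nuclei of both libraries, at 264 against 513 CPM in stroke (0.514, 0.479 to 0.551) and 299 against 570 CPM in sham (0.524, 0.437 to 0.624), but not in few-marker nuclei, at 1.03 and 1.18. Endothelial genes were at 1.25 in the multi-marker nuclei of each library, mural genes at 1.02 in stroke and 1.38 in sham, oligodendrocyte genes at 1.20 in stroke and astrocyte genes at 0.886 and 1.24. Single markers of other cell types went beyond their lists: Slc1a3, a glutamate transporter of astrocytes, was at 92.6 against 40.5 CPM in multi-marker stroke nuclei (2.29-fold) and 65.9 against 22.1 in sham (2.98-fold), the endothelial receptor gene Kdr at 35.8 against 16.7 in stroke (2.14-fold) and the myelin gene Mag at 16.4 against 7.27 (2.26-fold). Each was the only gene of its list at 2-fold or more in multi-marker stroke nuclei, of 10 counted, and the part of these cell types in the results was not tested. Per nucleus, the median glutamatergic activity was 200.2 CPM in multi-marker stroke and 194 in multi-marker sham nuclei, against 389 and 456 in other nuclei, and 16 of the 167 multi-marker stroke nuclei and none of the 21 sham ones were at 0. The median myeloid activity per nucleus was 1008 CPM in multi-marker, 231 in few-marker and 233 in other stroke nuclei, and 608, 239 and 211 in sham, so the middle few-marker nucleus of either library was close to the middle of the other nuclei.

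Among genes of no list, the 15 with the highest lower bound of the ratio of gated over other stroke nuclei were Pilra, C5ar2, Adap2, F11r, Rhoh, Cd33, C5ar1, Klhl6, Rgs10, Slamf9, Siglecf, Tifab, Siglece, Abi3 and Hhex. Their ratios in stroke, from 4.62 to 9.26, chose them. In multi-marker sham nuclei, which had no part in the choice, the ratio over other sham nuclei lay between 2.25 (C5ar1, 4 fragments) and 9.88 (Pilra, 8 fragments), with intervals that include 1 for C5ar1, Slamf9 and Tifab. Of the 15 only Rgs10 had the 5 expected fragments asked for in the count of genes there. Pilra, a paired inhibitory receptor of myeloid cells, was at 46.3 CPM in multi-marker stroke, 6.90 in few-marker and 3.54 in other stroke nuclei, and at 18.8, 3.97 and 1.91 in sham. C5ar1 and C5ar2, the receptors for the complement fragment C5a, were at 37.1 and 39.4 CPM in multi-marker stroke nuclei and 9.41 and 18.8 in multi-marker sham nuclei. Cd33, a sialic acid receptor that restrains microglial uptake, was at 35.1 CPM in multi-marker stroke and 14.1 in multi-marker sham nuclei. Rgs10, a regulator of G protein signalling that is high in microglia, was at 118 and 70.6 CPM in the same groups and at 16.9 and 23.8 in few-marker nuclei, with 17.5 and 17.4 in other nuclei. In few-marker stroke nuclei, which had a part in the choice, 12 of the 15 were under 2-fold. Over all genes there, 0.903% were at 2-fold or more.

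The whole gate of stroke against the whole gate of sham compares groups of unlike makeup. The gate's own markers, which chose the nuclei of both libraries at 1 pooled rate, stood at 1.03 times sham, given as a description. The myeloid list was at 796 against 347 CPM (2.30, 2.15 to 2.45) and the homeostatic list at 2.30. The chemokine list was at 3.66 (91.2 against 24.9 CPM), the inflammatory list at 2.49 and the phagocyte list at 2.03. Over all genes 8.06% were at 2-fold or more and 2.6% at 0.5 times or less; a gene could reach the minimum of 5 expected fragments through its stroke fragments alone, so no count of list genes is given between the libraries. In other nuclei the same ratios were 1.08 for the myeloid, 1.22 for the homeostatic, 1.29 for the chemokine and 1.20 for the phagocyte list. Multi-marker nuclei made up 8.30% of the sham gate and 56.4% of the stroke gate, and the part of this difference in these values was not tested.

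Multi-marker nuclei were therefore also compared with each other, with only 21 nuclei on the sham side and a background of 8.71% of genes higher and 5.32% lower. The phagocyte list was at 2.19 times sham (463 against 212 CPM; 1.77 to 2.74), the chemokine list at 2.20 (1.44 to 3.51) and the inflammatory list at 1.96 (1.51 to 2.59). The myeloid list was at 1.77 (1.55 to 2.02), the homeostatic list at 1.38 (1.19 to 1.59), lysosomal genes at 1.44 (1.27 to 1.64) and lipid-handling genes at 1.5 (1.31 to 1.73). Trem2 was at 3.49 times sham (1.32 to 13.1) and Abca1 at 2.51 (1.78 to 3.66). Ordered by homeostatic activity, the lower 84 stroke nuclei held 409 CPM of phagocyte genes and the upper 83 held 541, where the sham parts held 151 and 289. These parts were not matched between the libraries. The myeloid list was at 751 and 1433 CPM in the stroke parts and 391 and 829 in the sham parts. Homeostatic genes were at 426 and 1072 CPM against 210 and 877. The gap in phagocyte genes cannot be told apart from these gaps. The spread between animals could not be had.

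By gene, the 10 highest of the stroke over the sham gate, ranked by the lower bound of the ratio, had at most 16 fragments each in the sham gate. Naip2 held 16 fragments in sham and 175 in stroke (4.64 to 37.7 CPM; 8.14, 4.87 to 14.5), and Ccl12 4 and 68 (12.6, 4.72 to 47.7). The interferon-driven Trim30a held 6 and 104 fragments (12.9, 5.73 to 35.9) and the complement gene C4b 4 and 68 (12.6, 4.72 to 47.7). The predicted genes Gm49391, Gm49392 and Gm49393 overlap on chromosome 13 and share fragments; they had 1, 4 and 3 fragments in sham and 49, 76 and 80 in stroke, with ratios of 36.4 (6.24 to 1469), 14.1 and 19.8. Sh2d1b1 and Vmn2r26 had none in sham and 35 and 27 in stroke, at least 8.68-fold and at least 6.69-fold higher against a floor of 3 fragments, and Lalba, the milk protein gene, held 1 and 35 (26.0, 4.38 to 1057). In other nuclei Naip2, Trim30a, C4b and the 3 predicted genes were also higher in stroke, by 2.26, 2.36, 2.04, 2.57, 2.04 and 2.30 times (the last 3 in the order Gm49391, Gm49392, Gm49393), and Ccl12 by 2.86. Over all genes in other nuclei, 4.2% were 2-fold or more higher in stroke than in sham and 0.0569% were 2-fold or more lower. The same ratio is not given here for Sh2d1b1, Vmn2r26 and Lalba.

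The 10 lowest, ranked by the upper bound of the ratio, were Gja6, Olfr1426, Arr3, Fut1, Sh2d7, Qrfpr, Myo5c, Fxyd4, Kcnj6 and Lbp, a set with no gene of the myeloid lists. Kcnj6, a neuronal potassium channel, had 965 fragments in sham and 539 in stroke (0.415, 0.373 to 0.462), the myosin gene Myo5c 465 and 242 (0.387, 0.330 to 0.453) and Qrfpr, a neuropeptide receptor gene, 162 and 66 (0.303, 0.224 to 0.406). Lbp, which encodes a plasma protein that binds bacterial lipopolysaccharide, had 96 and 41 fragments (0.318, 0.215 to 0.462), and with windows around the start site alone its direction was the opposite. The other 6 had at most 41 sham and 12 stroke fragments.

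Beyond genes, 1735 of the 19323 bins with at least 20 fragments in gated stroke nuclei met the 4-fold limit, and these bins were then measured in sham. Over these bins gated sham nuclei had 1.93 times the activity of other sham nuclei (1.88 to 1.98), and 46.3% of bins were at 2-fold or more, against 0.631% of the bins that met the fragment minimum but were not chosen. Multi-marker sham nuclei reached 6.02-fold (5.78 to 6.27) from 2419 fragments in all, with 68.5% of bins at 2-fold against 10.9% of the bins not chosen. Few-marker sham nuclei reached 1.35-fold (1.31 to 1.40) from 3863 fragments, with 28.1% against 0.398%, and few-marker stroke nuclei, which are part of the choice, 2.04-fold. The shares of bins are set by how thin the chosen bins are, and nothing is read from them: in multi-marker sham nuclei 1227 bins held any fragment and 1189 of these were at 2-fold or more. The sums over all bins do not have this limit, at 6.02 and 1.35. Single bins were thin: the Nlrp1b bin, in an exon of that inflammasome gene, held 41 fragments in gated stroke nuclei and 6 in gated sham nuclei (23.9-fold over other sham nuclei, 6.08 to 99.0), the Kcnrg bin 28 and 4, the Osgin2 bin 27 and 5, and the Tubgcp5 bin 42 and 2.

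Most of these bins were distal. Only 128 (7.38%) lay within 1000 bases of a start site, against 10304 of 15185 bins (67.9%) with at least 5 CPM in other stroke nuclei, while 714 lay in introns, 298 in exons and 723 between genes. The median distance to the nearest start was 20227 bases, and 1163 genes were the nearest to at least 1 bin. Qk, an RNA-binding protein gene, was nearest to 8 bins, and Bin1, a gene for a membrane-shaping protein, Ly86, Marcks, Vsir and Zfp36l2 to 7 each. The lysosomal protease gene Ctsd was nearest to 6 bins, and Abca1 and Lgmn to 5 each.

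Motif letters differed between these bins and the bins open in other stroke nuclei. GAGGAAGT, a PU.1 motif, was found on either strand in 19.7% of the chosen bins against 3.10% of the others, a ratio of 6.36 (5.58 to 7.24), and with both sets limited to bins farther than 1000 bases from a start it was 19.6% against 3.16% (6.21, 5.17 to 7.47). The RUNX letters TGTGGTT were in 16.2% against 6.10% (2.65, and 2.13 for distal bins). GGAANNGAA, the composite motif that can overlap the PU.1 letters, was in 23.2% against 12.1% (1.92, distal 1.67), the IRF letters GAAANNGAA in 18.1% against 10.1% (1.79, distal 1.56), and the CEBP letters TTGCNNAA in 23.7% against 13.7% (1.73, distal 1.39). Several ratios came down to about 1 once only distal bins were set side by side: the AP-1 letters TGANTCA, in 21.6% against 11%, went from 1.96 to 1.06, and the NFI letters TTGGCA from 1.42 to 1.04. For MEF2, CTAAAAATA, the ratio went from 2.87 to 1.5, and for NF-kB, GGGANTTTC, from 2.25 to 1.70. STAT, TTCCNGGAA, was at 1.16 and 0.946, the bHLH letters CAGATGG at 1.5 and 0.866, and the TFE letters TCACGTGA at 0.488 and 1.12. The median GC content was 51% in the chosen bins and 60% in the others (50.6% and 54.4% for distal bins), and its part in these ratios was not tested.

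**Figure D5:**
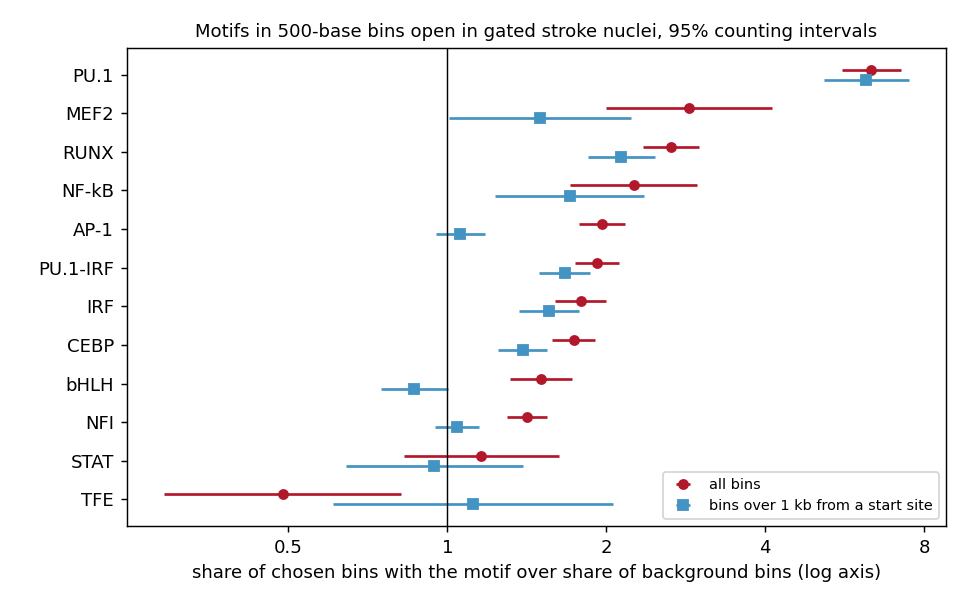
Ratio of the share of chosen bins with each motif to the share of bins open in other stroke nuclei (x axis, log scale), for all bins and for bins farther than 1000 bases from a start site, with 95% intervals for counting error. The PU.1 letters stand at 6.36 and 6.21, whereas the AP-1 letters go from 1.96 to 1.06.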

How the data were processed

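Nuclei were profiled by scATAC-seq in 1 sham and 1 stroke library. Cell Ranger ATAC 2.1.0 was run by the authors against mm10. They deposited, per library, deduplicated fragments and a table of raw, unscaled counts for each barcode (read pairs, fragments, fragments overlapping peaks). The submitters' processing notes also name Cell Ranger ARC. The libraries held 103023027 (sham) and 127304829 (stroke) read pairs and 76959104 and 96465679 fragments.

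Called barcodes with 1000 to 100000 fragments in peaks, more than 20% of their fragments, were kept. Fragments were counted over GENCODE M21 gene models plus 2000 bases upstream. Genes with at least 5 expected fragments in the smaller group were compared. A gene high in 1 group could reach this minimum through that group's own fragments. A ratio of 2-fold or more was taken as a difference, with no p-value, since each condition is 1 library. Exact Poisson and binomial intervals, and approximate log intervals for ratios of shares, cover counting error only. Python 3.11.15, numpy 2.4.6, scipy 1.17.1, pandas 2.3.3 and samtools 1.23.1 were used. The ratio, its interval and the 2-fold call were tested on simulated Poisson counts of 2 groups, which hold no clustering of fragments within nuclei. No doublets were removed.

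The gate, its markers and the 22 gene lists were chosen with earlier results of these data known, and the cut at 8 markers, the gates without Cx3cr1, with its RefSeq model or with capped markers, and the distal motif comparison were chosen after seeing the data. Genes named are the markers, list members, the 15 with the highest lower bound in gated stroke nuclei, and, between conditions, the 10 highest by lower bound and the 10 lowest by upper bound. Bins named are from the 12 with the highest lower bound, at most 1 per nearest gene. Sequences are from the mm10 genome. The scRNA-seq samples of the study were not analysed here.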

Additional observations from a re-analysis of the deposited data

Results flagged for a closer look

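Called barcodes outside the filter, which enter none of the comparisons, also passed the marker gate. In stroke 2.87% of 4360 such barcodes did (2.39% to 3.41%), and 35 (0.803%) also had fragments in 8 or more markers. In sham 27 of 1030 did (2.62%, 1.73% to 3.79%), 4 of them with 8 or more markers. This result was picked out by a rule for data outside the main measurement, with a count of 0 as its limit. Few-marker nuclei alone were 3.90% of kept sham and 2.95% of kept stroke nuclei. The shares that passed the gate therefore do not measure myeloid cells among these barcodes. The filter removed 4360 called stroke and 1030 called sham barcodes, so part of the marker-rich barcodes of each library is not in the counts given for gated nuclei.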

How the results depend on the processing

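No paired analysis was possible because there is only 1 library for sham and 1 for stroke, and no replicate could be left out. The myeloid list stayed above other stroke nuclei under every setting run, and the ratio of shares stayed above 1, with an interval reaching below 1 when the expected rate came from each library alone (1.14, 0.970 to 1.34).

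Gated nuclei numbered 423 in sham and 457 in stroke at a score of 2.5, 145 and 189 at a score of 5, 52 and 129 with windows around start sites and at least 3 fragments, 123 and 141 after thinning to 5000 fragments, 34 and 151 with each marker counted up to 3 fragments, 72 and 194 with 6 or more markers, 21 and 167 with 8 or more, and 7 and 127 with 10 or more; leaving out nuclei that passed another lineage's gate gave 164 in sham. The ratio of shares, 1.59 as reported, was 1.19 over all called barcodes, 1.24 with microglia-restricted markers, 1.96 with leukocyte markers, 3.37 with start-site windows, 1.98 without Cx3cr1, 2.02 with its RefSeq model, 6.03 with capped markers, and 3.66, 10.8 and 24.6 with 6, 8 and 10 or more markers. The gate without Cx3cr1 kept 143 of the 253 sham and 229 of the 296 stroke nuclei. Microglia-restricted markers kept 131 and 146 of them, capped markers 25 and 140, and start-site windows 21 and 99.

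The log2 ratio of the myeloid list over other nuclei (1.45 in stroke, 0.35 in sham) was 1.63 in stroke scaled to fragments in peaks, 2.12 and 0.71 with start-site windows, 1.74 and 0.46 at a score of 5, 1.51 and 0.48 without nuclei of a second lineage, and 1.82 and 1.10 with 8 or more markers; stroke over sham (1.20) it was 1.52 scaled to peaks, 1.66 with start-site windows, 1.38 at a score of 5 and 0.82 with 8 or more markers. With at least 20 expected fragments, 2.51% of genes were higher and 0.658% lower in gated than in other stroke nuclei, 0.148% and 0.271% in sham, and 4.84% and 1.73% between the gates; with no minimum, 10.2% were higher in stroke, 10.2% higher and 2.08% lower in sham, and 5.33% lower between the gates.

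Bins numbered 929 at 8-fold (log2 ratio in gated sham nuclei 1.38 against 0.95), 96 at 40 fragments (1.22, with the PU.1 letters in 26.0%), and 944 without nuclei of a second lineage (1.17); with 8 or more markers the ratio was 2.40.

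Directions that turned were those of some lists and of 1 gene, Lbp. In gated stroke nuclei the lymphocyte list was at log2 0.12 with start-site windows. In gated sham nuclei the astrocyte list was at 0.0045 scaled to peaks, 0.058 without Cx3cr1, 0.030 with its RefSeq model and 0.31 with 8 or more markers; the oligodendrocyte list at -0.15 with start-site windows, -0.19 without nuclei of a second lineage and -0.013 with 8 or more markers; the glutamatergic list at -0.25 without a second lineage, -0.0096 with the RefSeq model and -0.93 with 8 or more markers; the endothelial and mural lists at -0.12 and -0.098 without a second lineage; and the lipid-handling list at 0.12 with 8 or more markers. Stroke over sham, the lymphocyte list was at 0.041 scaled to peaks, the class II list at -0.29 and Lbp at 0.16 with start-site windows. The cause of these shifts was not tested, apart from the gates and minimums, which by construction change which nuclei and genes are counted.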
